A study of Homo sapiens with 9 samples.

Results

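ICAM1 and 9 genes of the NF-kB feedback circuit (NFKBIA, TNFAIP3, TNFAIP2, BIRC3, RELB, NFKB1, NFKB2, SOD2 and NFKBIZ) were followed across CAL27 cells, an established line grown from a human squamous carcinoma of the tongue. The 10 genes were picked by symbol with their behaviour in these libraries already known, and each symbol matched 1 of the 78894 gene identifiers in the data. All 10 were among the 17100 genes expressed well enough to be tested, that is, with a value of at least 1 TPM, the length-scaled share of a library's transcripts, in at least 2 libraries. Because the values themselves led to the choice, the levels and differences of these 10 genes are given as a description, with no p-value.

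The series is about an enhancer active in squamous carcinoma of the head and neck, and it set CRISPR-edited CAL27 cells beside Control cells. Control had 3 samples, and the groups labelled A2ko, A8ko and C9ko had 2 samples each, all grown in DMEM with 10% serum and left without treatment. The labels call the 3 groups knockouts, but they name neither the sequence edited nor whether its cells are 1 clone or pooled, so the edited target could not be checked in any sample. Both A2ko samples held identical values, as did both A8ko samples, so each pair stands for 1 library. The values below therefore come from 7 distinct libraries, of which 3 were Control, 1 was A2ko, 1 was A8ko and 2 were C9ko.

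NF-kB is a family of dimeric transcription factors held inactive in the cytoplasm by inhibitor proteins such as the product of NFKBIA. When a cytokine or a microbial product reaches its receptor, a kinase complex marks the inhibitor for destruction, and the released dimer enters the nucleus and binds kappa-B sites. Among the genes it switches on are its own inhibitors and subunits, which gives the circuit its feedback, and surface proteins such as ICAM1, the adhesion molecule to which leukocytes bind through beta-2 integrins.

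Sequence near the starts of these genes was examined for kappa-B motifs. The genes were picked as NF-kB feedback genes, so matches to these motifs are not independent of that choice. RefSeq's promoter table for GRCh38.p14 held 16 annotated starts for 9 of the 10 genes, RELB being the one without an entry. Of the 250 bases before each start, 9 of the 16 stretches, from 7 genes, held at least 1 of 3 motifs on either strand. The motifs were GGGNNNTTCC, GGAANTTCC and the kappa-B consensus taken by name, and 1 stretch can match more than 1 of them. Over all 35116 such stretches in the table, 12.8% held at least 1 of the 3, with 5.67% for GGGNNNTTCC, 0.826% for GGAANTTCC and 9.96% for the consensus. The stretches below are shown because they carry the matches of the genes whose levels are described next. Each is read 5′ to 3′ on the strand of its gene, and capitals mark the bases of a motif match.
ICAM1: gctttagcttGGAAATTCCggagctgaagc
NFKBIA: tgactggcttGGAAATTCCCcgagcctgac
TNFAIP3: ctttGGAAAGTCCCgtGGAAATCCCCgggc
NFKBIZ: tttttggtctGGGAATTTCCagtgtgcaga
NFKB1: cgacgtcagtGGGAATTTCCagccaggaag
NFKB2: aaacgtcatGGGAATTCCCCcctccggggg
BIRC3: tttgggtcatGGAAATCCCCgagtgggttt

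These stretches lie at chr19:10270924-10270953 (plus strand) for ICAM1, chr14:35404811-35404840 (minus strand) for NFKBIA and chr6:137867188-137867217 (plus strand) for TNFAIP3. The NFKBIZ stretch lies at chr3:101827757-101827786, that of NFKB1 at chr4:102501300-102501329, that of NFKB2 at chr10:102394462-102394491 and that of BIRC3 at chr11:102317275-102317304, all on the plus strand. The ICAM1 match began 186 bases before the annotated start, that of NFKBIA 81 bases before and that of NFKB1 49 bases before. TNFAIP3 had a pair of adjacent matches, of which the farther began 67 bases before the start. In GENCODE release 29 the matches in the ICAM1, TNFAIP3 and NFKB2 stretches overlap untranslated exon sequence of a transcript of the same gene. NFKB2 held matches at 2 of its 3 starts, NFKBIZ at both of its 2, and NFKB1 at 1 of 2. No match was found in the single stretch of TNFAIP2 or in the 4 of SOD2, which says only that these letters are not in those windows. A match is a string of letters and not evidence of binding, and several of these genes are textbook NF-kB targets, so the counts are a description.

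**Figure D1:**
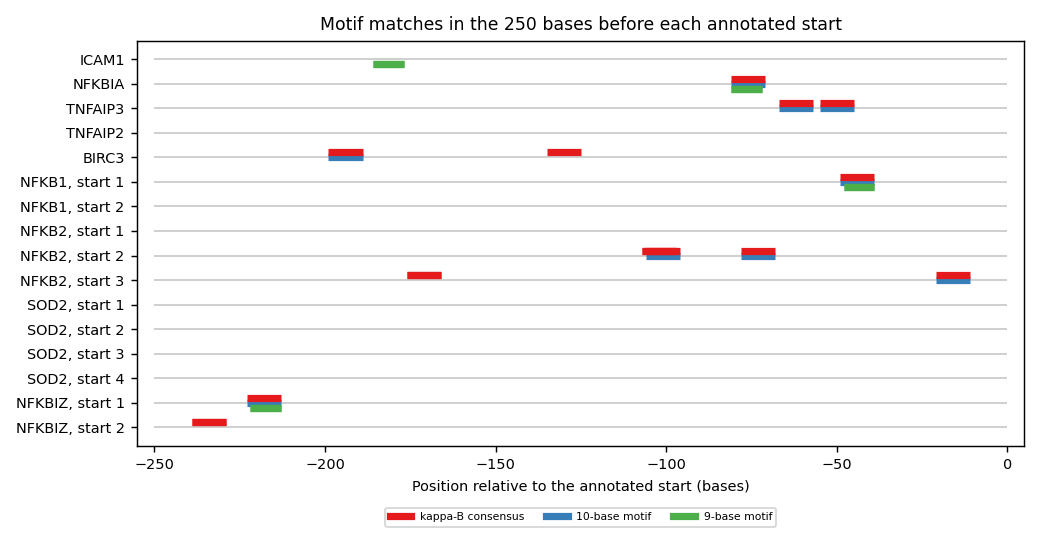
Motif matches in the 250 bases before each annotated start, with the position relative to the start on the horizontal axis and 1 grey line for each of the 16 starts of 9 genes. Red, blue and green bars mark the kappa-B consensus, the 10-base motif (GGGNNNTTCC) and the 9-base motif (GGAANTTCC), and 9 of the 16 lines carry at least 1 bar.

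The libraries carried RNA of squamous epithelium. All 8 squamous markers reached 1 TPM in every library, while PTPRC, the general leukocyte marker, stayed under 1 TPM and COL3A1 and KDR, markers of fibroblasts and endothelium, were at 0 in all 7. Other markers of these kinds did reach 1 TPM in every library, namely CD14 and CD68 for leukocytes, COL1A1 and COL1A2 for fibroblasts and CDH5 for endothelium. COL1A1 ranged from 5.56 to 13.4 TPM over the 7 libraries. CDH5 stood at 3.21 to 4.27 TPM in Control and 8.15 to 29.9 in the knockouts. The summed level of the squamous markers was 14120 to 15260 TPM in Control, 5896 in A2ko, 6597 in A8ko and 8625 to 8902 in C9ko. KRT5 (8716 to 9147 TPM in Control, 3081 to 5428 in the knockouts) and KRT14 (3549 to 4286 against 312.9 to 1283) carried the lower sums, and DSG3 was lower too, whereas CDH1 (100.3 to 106.3 against 138.3 to 177.0) and LAMB3 (149.8 to 166.7 against 185.2 to 305.6) lay above Control in every knockout library. The other 3 squamous markers lay on no common side. The 8 leukocyte markers, of which 4 stayed under 1 TPM in every library, summed to 44.0 to 51.4 TPM in Control, 63.8 in A2ko, 88.35 in A8ko and 72.8 to 74.0 in C9ko. The 5 endothelial markers, of which 4 stayed under 1 TPM, summed to 3.53 to 4.59, 12.8, 8.63 and 22.2 to 30.2 TPM in the same order, and the 6 fibroblast markers to 10.8 to 12.2, 17.7, 7.36 and 11.0 to 11.8. Mitochondrial transcripts made up 23.1 to 26.9% of all TPM in Control, 25.2% in A2ko, 20.65% in A8ko and 17.9 to 20.25% in C9ko. The part that these shifts had in the levels below was not tested, apart from a recalculation without mitochondrial transcripts. In bulk RNA, fewer cells of a kind and less RNA per cell cannot be told apart. TPM keeps no record of depth, so the depth of the libraries is unknown, and nothing in the labels says that the samples of a group were separate cultures, so p-values measure only the spread between these samples, which may be technical.

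ICAM1 (ENSG00000090339, chr19:10271120-10286615) had the largest difference from Control among the 10 genes in A2ko, and in C9ko it stood about level with SOD2 at the top of the set. Its level was 23.8, 22.7 and 23.3 TPM in Control, 70.1 in A2ko, 82.85 in A8ko, with 103.0 and 101.1 in C9ko. Every knockout library lay above every Control library, and the order from A2ko to A8ko to C9ko left a gap between each group and the next. Against the Control mean of 23.3 ± 0.557 TPM (SD, n = 3), the mean was 3.01 times as high in A2ko, 3.56 times in A8ko and 4.38 times in C9ko. As differences in log2(TPM + 1), the scale of all differences below, these were 1.55, 1.79 and 2.09 (SE 0.06 for C9ko). The ICAM1 stretch shown above was the only one in which the 9-base motif stood without a match to the consensus.

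NFKBIA (ENSG00000100906, chr14:35401513-35404749) encodes IkB-alpha, the inhibitor that returns NF-kB to the cytoplasm. It was present at 118.0, 107.0 and 130.5 TPM in Control, 138.5 in A2ko, 233.7 in A8ko, with 209.4 and 206.2 in C9ko. A8ko and C9ko stood well clear of Control, while A2ko lay just above the highest Control library and fell inside the Control range once the libraries were scaled to one another by the median of ratios. The log2 differences were 0.23 in A2ko, 0.98 in A8ko and 0.81 (SE 0.09) in C9ko, from a Control mean of 118.5 ± 11.8 TPM (SD, n = 3).

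TNFAIP3 (ENSG00000118503, chr6:137866349-137883312) encodes A20, a ubiquitin-editing enzyme that shuts off signalling upstream of the kinase complex. It stood at 36.1, 33.15 and 34.5 TPM in Control, 32.6 in A2ko, 123.7 in A8ko, with 114.2 and 115.3 in C9ko. The libraries thus fell into a low set of Control and A2ko, with A2ko just below the lowest Control library, and a high set of A8ko and C9ko. The mean was 3.58 times Control in A8ko and 3.32 times in C9ko (log2 differences of 1.81 and 1.70, SE 0.06 for C9ko), and 0.943 times in A2ko (log2 difference of -0.08).

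NFKBIZ (ENSG00000144802, chr3:101827990-101861022) encodes IkB-zeta, a nuclear member of the inhibitor family that also takes part in switching on a subset of NF-kB targets. Its level was 25.8, 26.5 and 25.9 TPM in Control, 22.5 in A2ko, 53.35 in A8ko, with 51.1 and 55.05 in C9ko. The sides were those of TNFAIP3: A8ko and C9ko lay above every Control library at about the same level, and A2ko lay below every Control library. The log2 differences were -0.20 in A2ko, 1.01 in A8ko and 0.998 (SE 0.07) in C9ko.

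Among the subunit genes, RELB (ENSG00000104856, chr19:45001464-45038192) encodes the partner of p52 in the alternative branch of the pathway. It was read at 18.2, 17.6 and 17.2 TPM in Control, 25.6 in A2ko, 34.3 in A8ko, with 33.85 and 36.2 in C9ko. All knockout libraries lay above Control, with A2ko between Control and the other knockouts, and the A8ko value fell between the C9ko values. The log2 differences were 0.51, 0.92 and 0.95 (SE 0.07).

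NFKB2 (ENSG00000077150, chr10:102394110-102402529) encodes p100, the precursor of p52. It stood at 26.5, 29.7 and 32.3 TPM in Control, 34.5 in A2ko, 42.2 in A8ko, with 43.3 and 42.3 in C9ko. The Control libraries spread more here than for RELB, and A2ko overlapped them with median-of-ratios scaling. The log2 differences were 0.22 in A2ko, 0.51 in A8ko and 0.53 (SE 0.09) in C9ko.

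NFKB1 (ENSG00000109320, chr4:102501359-102617302) encodes p105, the precursor of the p50 subunit. Its level was 31.8, 26.9 and 31.3 TPM in Control, 25.4 in A2ko, 43.8 in A8ko, with 33.7 and 51.0 in C9ko. The C9ko libraries differed 1.51-fold from each other, more than for any other gene of the set, and the lower one lay just above the highest Control library. The log2 difference in C9ko was 0.46 (SE 0.17), 0.17 without replicate 2 and 0.75 without replicate 1. In A8ko the difference was 0.54, and in A2ko it was -0.22.

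BIRC3 (ENSG00000023445, chr11:102317484-102339403) encodes cIAP2, a ubiquitin ligase at TNF receptors that protects cells from death. It stood at 16.7, 17.5 and 16.4 TPM in Control, 10.7 in A2ko, 16.35 in A8ko, with 24.7 and 28.25 in C9ko. C9ko lay above Control and A2ko below it, while A8ko was under the lowest Control library by a margin far smaller than the Control spread. The log2 differences were -0.61, -0.04 and 0.62 (SE 0.08).

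SOD2 (ENSG00000291237 in the data, chr6:159669069-159762281) encodes the manganese superoxide dismutase of mitochondria. It was present at 80.0, 82.4 and 81.1 TPM in Control, 130.7 in A2ko, 209.2 in A8ko, with 330.5 and 331.6 in C9ko. As for ICAM1, the levels stepped up in the order Control, A2ko, A8ko, C9ko with no overlap. Against a Control mean of 81.2 ± 1.22 TPM (SD, n = 3), the mean was 1.61, 2.58 and 4.08 times as high, or 0.68, 1.36 and 2.01 (SE 0.06) in log2.

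TNFAIP2 (ENSG00000185215, chr14:103121469-103137439), first known as a transcript induced by TNF, was the most abundant of the 10 in every group on the length-scaled TPM scale. It stood at 289.5, 262.8 and 283.5 TPM in Control, 445.4 in A2ko, 291.8 in A8ko, with 391.2 and 434.5 in C9ko. It was the only gene of the set whose A2ko value lay above all others, A8ko and C9ko included. The log2 differences were 0.68 in A2ko and 0.57 (SE 0.08) in C9ko. The A8ko difference was 0.07, and it changed sign to -0.02 with median-of-ratios scaling and to -0.0039 without mitochondrial transcripts.

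**Figure D2:**
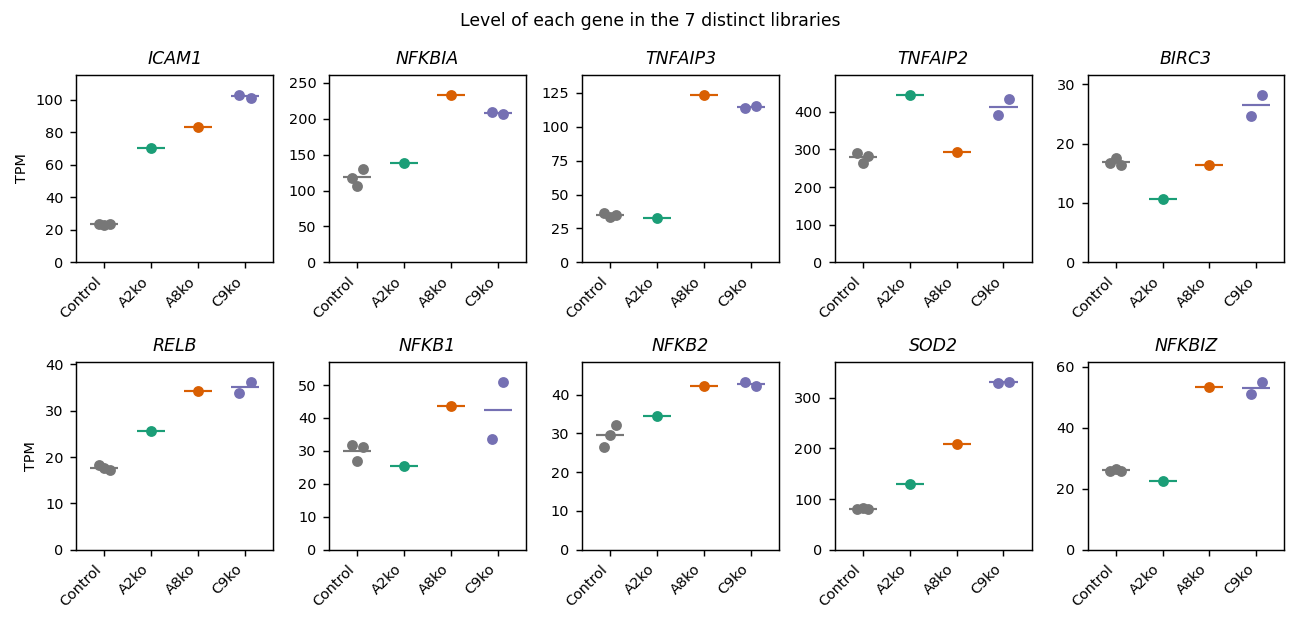
TPM of each of the 10 genes in the 7 distinct libraries, on linear axes that start at 0; each point is 1 library and each bar the group's mean. ICAM1 and SOD2 step up from Control through A2ko and A8ko to C9ko, while TNFAIP3 and NFKBIZ are low in Control and A2ko and high in A8ko and C9ko.

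The order of the levels in Control, in TPM, ran from TNFAIP2 (278.6) through NFKBIA (118.5), SOD2 (81.2), TNFAIP3 (34.6), NFKB1 (29.98), NFKB2 (29.5), NFKBIZ (26.0), ICAM1 (23.3) and RELB (17.7) to BIRC3 (16.9). The ranges of the 3 libraries overlapped between NFKB1 and NFKB2 and between RELB and BIRC3, and between no other neighbours in that order. In C9ko, SOD2 passed NFKBIA and ICAM1 moved from rank 8 to rank 5, while the range of NFKB1 overlapped those of NFKB2 and RELB, which did not overlap each other. ICAM1 held rank 4 in A2ko and rank 5 in A8ko. Summed over the 10 genes, the level was 666.3, 626.2 and 676.1 TPM in Control, 936.1 in A2ko, 1131 in A8ko, with 1335 and 1401 in C9ko.

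Counted by side, 6 of the 10 genes in A2ko lay above every Control library (ICAM1, NFKBIA, TNFAIP2, RELB, NFKB2 and SOD2), beside 50.4% of all tested genes. The other 4 (TNFAIP3, BIRC3, NFKB1 and NFKBIZ) lay below every Control library, beside 26.3%. In A8ko, 9 lay above, beside 46.9% of all tested genes, and BIRC3 below, beside 26.4%. In C9ko all 10 lay above, beside 41.1%. The 6 genes above Control in A2ko were above it in all 4 distinct knockout libraries, as 17.0% of tested genes were, and none of the 10 was below it in all 4, as 4.61% were. Scaling by the median of ratios left 4 above and 4 below in A2ko, 8 above and 1 below in A8ko, and 10 above in C9ko. The 3 comparisons share the same Control libraries, and the choice of genes rests on these contrasts, so nothing is read from these counts.

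Sorted by size, ICAM1 alone lay at least 1 log2 unit above the Control mean and outside the Control range in A2ko, beside 3.54% of tested genes. In A8ko the genes past that mark were ICAM1, TNFAIP3, SOD2 and NFKBIZ, beside 2.05%, and in C9ko they were ICAM1, TNFAIP3 and SOD2, beside 3.33%; none lay as far below in C9ko, beside 1.78%. NFKBIZ sat at the edge, at 1.01 in A8ko and 0.998 in C9ko. The 10 genes had a median difference of 0.23 for A2ko, 0.95 for A8ko and 0.88 for C9ko, while over all tested genes the corresponding medians were 0.12, 0.09 and 0.11. Median-of-ratios scaling moved the median of all genes to between -0.03 and 0.02, and the 10 genes then had medians of 0.06, 0.86 and 0.76. Whether the knockout groups differ from one another was not tested, because only 1 distinct library stands for A2ko and 1 for A8ko.

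**Figure D3:**
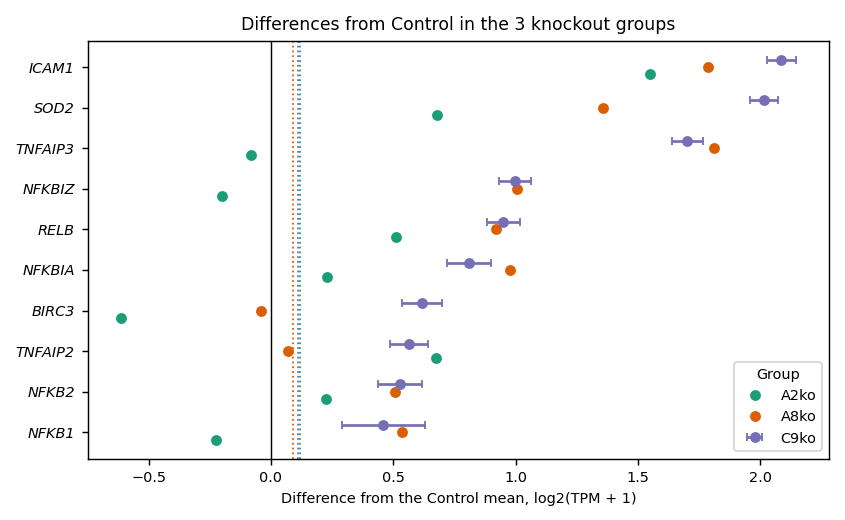
Difference of each gene from the Control mean in log2(TPM + 1), for A2ko (green), A8ko (orange) and C9ko (purple, with its standard error); dotted lines mark the median of all tested genes in each group. A2ko points for BIRC3, NFKB1, NFKBIZ and TNFAIP3 lie left of 0, and the C9ko points all lie right of it.

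Between genes, likeness was measured as the root mean square distance of the log2 profiles over the 7 libraries, each centred on its Control mean. NFKBIA and RELB were the closest pair (distance 0.16), followed by NFKBIA and NFKBIZ (0.21), and ICAM1 and BIRC3 were the farthest apart (1.33). The nearest of the set to ICAM1 was SOD2 (0.37). Among 11267 other genes, the closest to ICAM1 were TIMP2, an inhibitor of metalloproteinases (0.19), CPZ, a carboxypeptidase (0.19), and PMEPA1, a gene of the TGF-beta pathway (0.19). HLA-DQB1, an HLA class II chain (0.27), and SLC12A4, a potassium-chloride cotransporter (0.28), came next.

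TIMP2 stood at 20.5, 19.2 and 18.2 TPM in Control, 50.3 in A2ko, 57.3 in A8ko, with 70.3 and 73.4 in C9ko, the same order of groups as ICAM1. Among the closest to the mean profile of the other 9 genes were SEPTIN11 (0.03), LAMB3, a chain of laminin-332 (0.06), EHD1 (0.06) and ZBTB38 (0.06). SEPTIN11, which encodes a septin of the cytoskeleton, stood at 13.1, 13.1 and 13.0 TPM in Control, 14.2 in A2ko, 24.3 in A8ko, with 25.65 and 27.8 in C9ko. A2ko was thus near Control, and A8ko and C9ko were well above it. These distances rest on 7 libraries of 1 cell line, and they are a description.

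The rest of the pathway was followed in 8 lists by role, from ligands to targets, with 119 genes of which 109 were tested. These lists, too, were chosen with earlier results of these data known. The calls, p-values and shares given for their genes are therefore not independent of that choice, and they describe these libraries only. In C9ko, limma called 56 of the 109 higher than Control and 7 lower at an adjusted p under 0.05, beside 22.0% and 7.42% of all 17100 tested genes. Their median difference was 0.40 in C9ko, beside 0.11 over all tested genes, 0.10 in A2ko beside 0.12, and 0.17 in A8ko beside 0.09. After scaling these pathway medians were 0.28 in C9ko, -0.05 in A2ko, where the sign turned, and 0.09 in A8ko. With that scaling, the calls were 49 higher and 11 lower, beside 2702 (15.8%) higher and 2099 lower of all 17100 tested genes. Among genes called, 88.9% were higher before scaling and 81.7% after it, and over all tested genes the share moved from 74.8% to 56.3%. In A2ko, 2 of the 109 lay at least 1 log2 unit above Control and outside its range and 3 lay as far below, beside 3.54% and 1.53% of all tested genes. In A8ko the counts were 16 and 3, beside 2.05% and 2.68%.

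Of the 7 ligand genes tested, 5 rose in C9ko and none fell by limma at an adjusted p under 0.05. Beside them, 22.0% of all tested genes rose and 7.42% fell by the same test. TNF, the cytokine after which much of this pathway is named, went from 1.41 ± 0.244 TPM (SD, n = 3) in Control to 11.3 and 12.2 in C9ko, a rise of 2.41 (SE 0.12, limma adjusted p = 3.49e-05). TNF stood at 2.95 TPM in A2ko and 16.4 in A8ko, so all knockout libraries exceeded Control, and A8ko held the highest value. IL1B, the interleukin-1 cytokine, went from 100.9 ± 6.46 TPM to 176.3 and 194.8 in C9ko (rise of 0.87, SE 0.08, limma adjusted p = 0.0004), with 177.8 in A2ko and 292.9 in A8ko. TNFSF15, another TNF family ligand, rose by 1.28 in C9ko (SE 0.11, limma adjusted p = 2.76e-04).

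Of 16 receptor genes, 6 rose in C9ko, 3 fell and 7 did not pass the test, beside 22.0% and 7.42% of all tested genes. The largest rises were those of TNFRSF12A, the receptor for TWEAK (0.96, limma adjusted p = 1.34e-04), TLR2, a sensor of bacterial lipoproteins (0.79, limma adjusted p = 0.00352), and TNFRSF10B, a death receptor for TRAIL (0.79, limma adjusted p = 3.45e-04). TLR3, a sensor of double-stranded RNA, fell by 0.44 (limma adjusted p = 0.0167), and its call was lost without Control replicate 2 (adjusted p = 0.0536) or C9ko replicate 2 (adjusted p = 0.0957). The TLR3 call was likewise lost with a block for replicate number, using only Control and C9ko (limma adjusted p = 0.0708). Falls were also called for TLR5 (difference of -1.45, limma adjusted p = 0.00086) and TLR6 (-0.46, limma adjusted p = 0.019). The Control and C9ko means of TLR5 and TLR6 lay under 5 TPM, the limit used for naming genes. In A8ko the median of the receptor list was -0.21, and in A2ko it was 0.35.

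Of 21 adaptor and ubiquitin ligase genes, 10 rose in C9ko, 1 fell and 10 did not pass, beside 22.0% and 7.42% of all tested genes. IRAK2, a kinase-like adaptor below interleukin-1 receptors, went from 6.42 ± 0.831 TPM (SD, n = 3) to 23.9 and 23.55 (rise of 1.74, SE 0.11, limma adjusted p = 8.27e-05). MYD88, the adaptor shared by interleukin-1 and most Toll-like receptors, rose by 1.35 (SE 0.07, limma adjusted p = 3.56e-05), and CARD10, a scaffold that feeds the kinase complex, by 0.84 (limma adjusted p = 7.89e-04). MYD88 stood at 48.1 and 51.7 TPM in C9ko but at 21.7 in A2ko and 20.5 in A8ko, closer to its Control level of 18.9 ± 0.338 TPM and within the Control range after scaling. TRAF5, an adaptor of TNF receptors, fell by 0.50 (SE 0.09, limma adjusted p = 0.00787).

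Of 8 kinase genes, 2 rose in C9ko and 6 did not pass, a share of rises near the 22.0% of all tested genes. The 2 were MAP3K14 (the NIK kinase of the alternative branch), by 1.09 (limma adjusted p = 2.5e-04), and IKBKE, by 0.89 (limma adjusted p = 3.02e-04). Of the other subunits, RELA, the p65 partner of p50, rose by 0.23 in C9ko (SE 0.06, limma adjusted p = 0.0295). That call was lost in 10 of 13 alternatives, among them scaling (difference of 0.11, adjusted p = 0.21) and leaving out any 1 library (adjusted p of 0.0512 without Control replicate 2, 0.057 without Control replicate 1, 0.0868 without Control replicate 3, 0.085 without C9ko replicate 1 and 0.151 without C9ko replicate 2). REL did not pass.

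Of 18 other inhibitors and deubiquitinases, 8 rose in C9ko, 1 fell and 9 did not pass, beside 22.0% and 7.42% of all tested genes. ZC3H12A, the RNase regnase-1 that degrades cytokine transcripts, went from 53.0 ± 3.08 TPM (SD, n = 3) to 126.6 and 135.1 (rise of 1.29, SE 0.07, limma adjusted p = 6.36e-05). TNIP1, a partner of A20, rose by 0.998 (SE 0.07, limma adjusted p = 1.19e-04), and CYLD, a deubiquitinase that opposes the pathway, by 0.92 (limma adjusted p = 0.00324). ZC3H12A stood at 36.3 TPM in A2ko and 115.7 in A8ko, and TNIP1 at 77.2 and 173.0 against 87.1 ± 3.71 in Control. Both therefore took the sides seen for TNFAIP3, below Control in A2ko and above it in A8ko. PDLIM2, which promotes the destruction of nuclear RELA, fell by 0.72 (limma adjusted p = 0.00617).

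Of 10 survival and stress targets, 5 rose in C9ko, 1 fell and 4 did not pass, beside 22.0% and 7.42% of all tested genes. PLK3, a stress kinase, rose by 1.26 (limma adjusted p = 2.5e-04), and BCL2L1, which encodes the survival protein BCL-xL, by 0.56 (limma adjusted p = 0.00129). CFLAR, which blocks caspase-8, rose by 0.47 (limma adjusted p = 0.0254), a call that was lost in 6 of 13 alternatives: with scaling (adjusted p = 0.0649), with no filter (adjusted p = 0.156), and without Control replicate 2 (adjusted p = 0.0595), Control replicate 3 (0.0761), C9ko replicate 1 (adjusted p = 0.11) or C9ko replicate 2 (adjusted p = 0.053). IER2, an immediate early gene, fell by 0.57 (limma adjusted p = 0.0014).

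Of 27 adhesion, surface and signalling targets tested, 19 rose in C9ko, 1 fell and 7 did not pass. Beside them, 22.0% of all tested genes rose and 7.42% fell. The list had a median difference of 0.86 in C9ko, 0.76 in A8ko and 0.05 in A2ko. CSF2, which encodes GM-CSF, went from 0.471 ± 0.244 TPM (SD, n = 3) to 17.6 and 18.3 in C9ko (rise of 3.70, SE 0.16, limma adjusted p = 2.17e-05), with 0.740 in A2ko and 35.3 in A8ko. CCL2, a chemokine that draws monocytes, went from 127.3 ± 9.10 TPM to 1432 and 1466 in C9ko (rise of 3.50, SE 0.08, limma adjusted p = 5.07e-06). CCL2 was also high in A2ko, at 298.2 TPM, but in A8ko it lay below every Control library, at 37.4. IL6, the acute-phase cytokine, went from 13.0 ± 0.978 TPM to 109.7 and 121.5 (rise of 3.06, SE 0.08, limma adjusted p = 7.05e-06), and it stood at 17.6 in A2ko and 130.5 in A8ko. JUNB, a subunit of AP-1, fell by 0.52 (limma adjusted p = 0.00236).

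**Figure D4:**
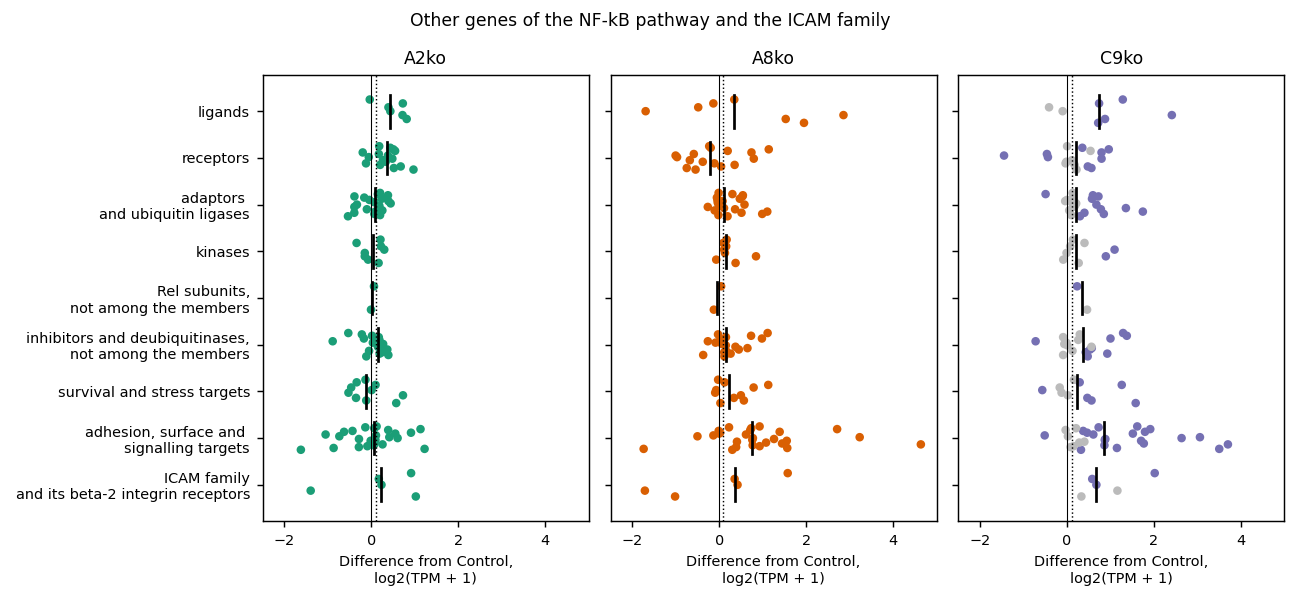
Difference from the Control mean in log2(TPM + 1) for the tested genes of the 8 pathway lists and of the ICAM family, in A2ko, A8ko and C9ko. The A2ko point of IL1A, at -2.74, lies beyond the left end of the axis and is not shown. Each point is 1 gene and each short vertical bar a list's median; in the C9ko panel purple points were called by limma at an adjusted p under 0.05 and grey points were not, and the dotted line is the median of all tested genes.

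With the knockout groups taken as 3 replicates of an edit, so that the spread between groups counts as error, limma called none of the 109 pathway genes at an adjusted p under 0.05. By the same adjusted p, 1.03% of all tested genes were called, 0.509% higher and 0.52% lower. At an unadjusted p under 0.05 there were 24 of the 109, of which 23 were higher. Beside them stood 2740 of all 17100 tested genes, of which 2090 were higher. Without the A2ko group, 34 pathway genes were called higher and 2 lower, beside 1382 (8.08%) higher and 611 lower of all 17100 tested genes. Without the A8ko group 1 was called higher, beside 0.392% of all tested genes, and without the C9ko group none was, beside 0.123%. With the knockout average taken within the fit of all libraries, where the spread between groups is not error, 48 were called higher and 8 lower. Over all 17100 tested genes, that fit called 3343 (19.5%) higher and 1018 lower.

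ICAM1 also has relatives and receptors. Of the 7 genes of the ICAM family and its beta-2 integrins, ICAM4 and ITGAL were too low to be tested, with at most 0.2996 and 0.06361 TPM in any library. ICAM5, an ICAM best known from neurons whose gene lies close to ICAM1, rose by 0.67 in C9ko (SE 0.11, limma adjusted p = 0.00444), from 7.82 ± 0.98 TPM (SD, n = 3) to 13.25 and 12.8, with 9.32 in A2ko and 10.8 in A8ko. ICAM5 thus lay above every Control library in each knockout group, by less than ICAM1, though in A2ko it overlapped Control once the libraries were scaled. ICAM2 and ICAM3 did not pass in C9ko (differences of 0.33 and 1.16, limma adjusted p = 0.282 and 0.15), and ICAM3 ranged from 0.556 to 4.24 TPM within Control. ICAM3 was at 0.244 TPM in A2ko and listed at 0 in A8ko.

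ITGB2, the beta-2 integrin chain of leukocytes and a member of the leukocyte marker list, rose by 2.02 in C9ko (SE 0.15, limma adjusted p = 1.82e-04), from 0.849, 1.31 and 0.725 TPM in Control to 6.76 and 6.995. Its level was 2.67 TPM in A2ko and 4.803 in A8ko, the order of groups seen for ICAM1. ITGAM, an alpha chain that pairs with ITGB2, rose by 0.58 in C9ko (limma adjusted p = 0.0443), at 1.32 and 1.30 TPM. The ITGAM call was lost in 7 of 10 alternatives, among them those without Control replicate 1 (adjusted p = 0.1) or Control replicate 2 (adjusted p = 0.0993). PTPRC, carried by nearly all leukocytes, was at most 0.02324 TPM in any library, while CD14 stood at 14.25 to 17.9 TPM in Control and 50.85 to 52.5 in C9ko. CD68, the other abundant marker of that list, went the other way, from 27.8 to 32.2 TPM in Control to 14.1 and 14.3 in C9ko.

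Position on the chromosome was compared through the 10 tested genes on either side of each of the 10 genes. The median difference of these 20 neighbours lay between -0.09 and 0.24 log2 units for every gene and group, and between -0.01 and 0.26 with 25 genes on either side. Around ICAM1 it came to 0.23 in A2ko, 0.04 in A8ko and 0.06 in C9ko, beside 1.55, 1.79 and 2.09 for ICAM1 itself, and 25 genes on either side gave 0.09 in A2ko. Around SOD2 it came to 0.08 in A2ko, 0.15 in A8ko and 0.08 in C9ko, beside 0.68, 1.36 and 2.01. Around NFKB1 in A8ko it was 0.24 (0.08 with 25 genes on either side), beside 0.54 for the gene, and around RELB in C9ko 0.24, beside 0.95.

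**Figure D5:**
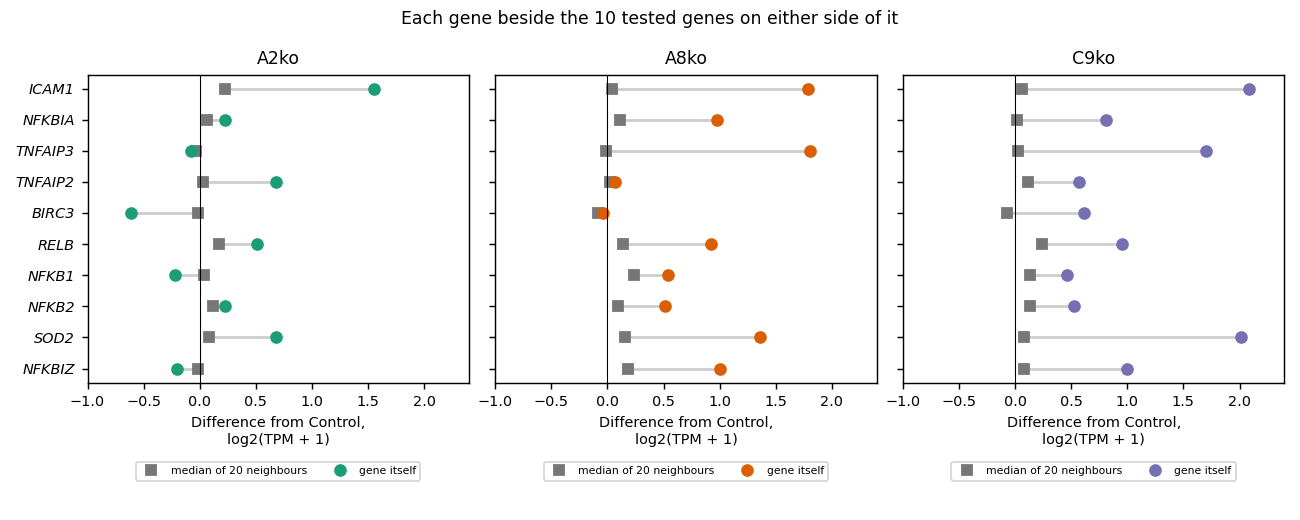
Each of the 10 genes (circles) beside the median of the 20 tested genes nearest to it on the chromosome (grey squares), as differences from the Control mean in log2(TPM + 1). The squares stay between -0.09 and 0.24 in all 3 panels.

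Some of the 10 genes overlap a gene on the other strand in GENCODE release 29, and use of strand by the counting step is not given in the sources used here, so such pairs cannot be fully told apart. LIMASI, antisense to ICAM1, stood at 1.22 to 3.01 TPM over the 7 libraries, and its difference in C9ko was -0.37 (limma adjusted p = 0.298). WAKMAR2, a long noncoding RNA antisense to TNFAIP3, rose by 1.49 in C9ko (SE 0.16, limma adjusted p = 8.65e-04), from 1.52 ± 0.30 TPM (SD, n = 3) to 5.14 and 7.10. It stood at 2.18 TPM in A2ko and 5.07 in A8ko, so A8ko and C9ko were again the high groups. WTAP, which overlaps SOD2 and encodes a subunit of the RNA methylation complex, went from 74.5 ± 2.44 TPM to 104.7 and 112.3 in C9ko (rise of 0.54, SE 0.06, limma adjusted p = 0.00126).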

How the data were processed

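RNA of 9 CAL27 samples was measured by polyA RNA sequencing from strand-marking (dUTP) libraries, per the labels. The authors deposited TPM per Ensembl gene identifier on hg38, per the submitters' processing notes. The aligner, quantifier, annotation and strand setting of the counting are not given in the sources used here. Identical files were counted as 1 library; in each such pair both headers carry the second library's name. TPM keeps no depth, so no counting interval is given.

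Ensembl identifiers were matched to symbols (61463 of 78894). The set's own gene positions and the promoter sequences came from RefSeq tables of GRCh38.p14. Positions of neighbouring genes came from GENCODE release 29, so tested genes absent from it were not counted as neighbours. Values were analysed as log2(TPM + 1), which understates changes of weakly expressed genes, for genes with at least 1 TPM in at least 2 distinct libraries. C9ko was tested with limma 3.58.1 in R 4.3.3 (lmFit and eBayes with trend, all 4 groups sharing 1 estimate of the spread), and p-values were adjusted by Benjamini-Hochberg over the 17100 tested genes. All knockouts were tested on 3 group means against 3 Control libraries. A2ko and A8ko, with 1 library each, had no test. The spread in the C9ko fit therefore came only from the Control and C9ko libraries. The fits were tested on simulated data.

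The 10 genes and all lists were chosen with earlier results of these data known. Named pathway genes were the 3 largest rises and falls per list among genes called in C9ko whose higher group mean was at least 5 TPM, every gene of the ICAM family, and the 5 nearest profiles, of which 1 gene is not reported here; overlapping genes and any others were named after their values were seen. Alternatives covered the pseudocount, the filter, scaling, mitochondrial transcripts, single libraries or groups left out, the spread estimate and a replicate block.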

Additional observations from a re-analysis of the deposited data

Results flagged for a closer look

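In 4 of the 10 genes, every library of 1 knockout group lay above Control and every library of another below it, a difference between groups that was not tested. Over all 17100 tested genes, 30.7% showed such a split. TNFAIP3, NFKB1 and NFKBIZ lay above Control in A8ko and C9ko and below it in A2ko, with gaps of 1.891, 0.76 and 1.208 log2 units from the lowest group difference to the highest. BIRC3 lay above Control in C9ko and below it in A2ko and A8ko, with a gap of 1.23.

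Of 47 genes of the text examined in all, 19 showed such a split, the other 15 also untested. IL1A, TNFSF10 and ATF3 among them were named because they stood apart between the groups, which raises that count. TLR5 and TLR6, which were not among the 47, lay above Control in A2ko and below it in A8ko and C9ko. A8ko and C9ko were above Control and A2ko below it for TNFSF15 (gap of 1.318), TNFRSF10B (0.991), IKBKE (1.043), TNIP1 (1.17), ZC3H12A (1.82), CFLAR (0.82), BCL2L1 (0.685), IL1A (4.685) and ATF3 (1.941). CCL2 was above Control in A2ko and C9ko and below it in A8ko, with the widest gap of the 19 genes (5.24). TRAF5 was above Control in A2ko and A8ko and below it in C9ko (0.798), and JUNB (0.622) and TNFSF10 (2.13) were above it in A2ko and below it in A8ko and C9ko. ICAM2 was above Control in A2ko and below it in A8ko (2.038), and ICAM3 was above it in C9ko and below it in A2ko and A8ko (2.869). With median-of-ratios scaling, TRAF5, JUNB and ICAM3 no longer lay on the same opposite sides, and the other 16 genes did. A2ko and A8ko are represented by 1 library each in all of these.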

How the results depend on the processing

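No alternative reversed a called result, and of 260 recalculated differences of the 10 genes only the A8ko differences of TNFAIP2 changed sign. Alternatives that changed only the filter are among the 260, and they leave these differences as they were by construction. Of the 260, 52 moved by more than the Control SD. For the pathway genes in C9ko, the 56 calls higher ranged from 44 to 56 over all alternatives, and leaving out 1 library gave 47 to 54. The main fit tested 109 of these genes, but not every alternative did. With no filter 118 were tested (44 called higher), with a mean of at least 5 TPM 95 (52 called higher). Without a C9ko replicate 108 were tested. The 7 calls lower became 4 with a mean of at least 5 TPM, where TLR3, TLR5 and TLR6 were not tested. The count of calls lower was 11 with median-of-ratios scaling, 11 without mitochondrial transcripts, and 5 to 7 without 1 library. The 5038 calls over all genes became 3334 to 4204 without 1 library. Control and C9ko share replicate numbers, but same-numbered libraries did not deviate together (r of -0.05 and -0.01 over 17100 genes). With so few libraries this check cannot decide whether the numbers pair them. With the replicate block, 3248 genes were called, 53 pathway genes higher and 5 lower. The calls of TLR3 (limma adjusted p = 0.0708), RELA (0.258) and ITGAM (0.0745) were then lost.

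With all knockouts against Control, the 0 pathway calls became 34 higher and 2 lower without A2ko, 1 higher without A8ko, and 48 higher and 8 lower with the knockout average in the fit of all groups. The 176 calls over all genes became 23 with no filter, 1993 without A2ko, 67 without C9ko, 4361 with the knockout average, and 5 to 11 without 1 Control library. In A2ko, the 2 pathway genes past the Control range above became 5 with a pseudocount of 0.1 and 1 after scaling, the 3 below became 5 after scaling, and the 867 over all genes became 1813 with that pseudocount and 380 with a mean of at least 5 TPM. In A8ko, the 3 below became 5 with that pseudocount, and the 809 over all genes became 1689 and 412. The mean filter left 10971 genes tested and no filter left 42643, beside 17100 in the main fit. Counts under those filters are therefore of unlike sets of genes. The cause of the other moves was not tested. With no filter, limma no longer called CYLD (adjusted p = 0.0568), PDLIM2 (0.0646), CFLAR (0.156), RELA (0.0518) or ITGAM (0.102) in C9ko. Depth is unknown, so how far it limits weakly expressed genes cannot be stated.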

Other observations

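Some genes of the pathway lists outside the naming rule, chosen here after their values were seen, stood apart between the knockout groups. IL1A, which encodes the interleukin-1 cytokine kept inside epithelial cells until damage, was listed at 34.9, 31.4 and 36.7 TPM in Control, 4.30 in A2ko, 135.3 in A8ko, with 53.9 and 60.0 in C9ko. IL1A was thus lowest in A2ko and highest in A8ko, while it rose by 0.71 in C9ko (limma adjusted p = 0.00143). TNFSF10, which encodes TRAIL, stood at 312.8 to 328.3 TPM in Control, 434.4 in A2ko, 98.5 in A8ko, with 292.3 and 305.0 in C9ko, so A8ko was far the lowest and C9ko lay slightly below Control. ATF3, a stress-induced transcription factor, was at 33.8 to 36.4 TPM in Control and 10.8 in A2ko, against 43.7 in A8ko and 41.2 and 47.6 in C9ko.

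Among 4 chemokines that draw neutrophils, CXCL8 and CXCL1 rose in C9ko, while CXCL2 (0.28, limma adjusted p = 0.171) and CXCL3 (0.40, limma adjusted p = 0.0588) did not pass the test. CXCL8 stood at 20.4, 19.9 and 21.4 TPM in Control, 20.3 in A2ko, 62.3 in A8ko, with 66.7 and 71.8 in C9ko (rise of 1.70 in C9ko, limma adjusted p = 1.93e-05). CXCL1 stood at 53.5, 49.96 and 52.5 TPM in Control, 54.8 in A2ko, 143.3 in A8ko, with 169.6 and 189.1 in C9ko (rise of 1.76, limma adjusted p = 1.96e-05). IL32, a cytokine-like gene, stood highest in C9ko, at 76.4 and 77.1 TPM against 18.02 in A2ko, 20.4 in A8ko and 11.0 to 12.1 in Control (rise of 2.63 in C9ko, limma adjusted p = 6.85e-06). Differences between the knockout groups were not tested.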
